A study of Mus musculus with 2 samples.

Results

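The genes described here are 8 regulators of pluripotency, Pou5f1, Nanog, Sox2, Sall4, Lin28a, Tdgf1, Stat3 and L1td1, in mouse embryoid bodies that were or were not given FGF10. They were selected by name: a probe set belonged to the group when the array's annotation gave it exactly 1 gene symbol and that symbol was 1 of the 8. This found 13 of the 45101 probe sets on the array, and all 8 genes had at least 1. Embryoid bodies, the aggregates in which embryonic stem cells start to differentiate, were formed in hanging drops from the CGR8 mouse line (strain 129). There was 1 array from embryoid bodies given recombinant FGF10, a secreted fibroblast growth factor, at 100 ng/ml, and 1 array from control embryoid bodies left in differentiation medium. Both came from stem cells kept without feeder cells in serum with LIF, the cytokine that acts through Stat3; whether the differentiation medium held LIF is not given in the sources used here. The sample labels call both samples day 2, whereas the design text puts RNA collection 24 h after treatment of 2-day embryoid bodies, and the stage is not settled between these. Each group is 1 sample of 1 cell line, so no difference below has a replicate check or a p-value.

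Pou5f1 (Oct4), a POU-domain protein, and Sox2, an HMG-box protein, bind DNA side by side, and with the homeodomain protein Nanog they form the regulatory core of embryonic stem cells. Sall4 is a zinc-finger factor that sustains Pou5f1 expression, Lin28a is an RNA-binding protein that blocks maturation of the let-7 microRNAs, and Stat3 carries the LIF signal into the nucleus. Tdgf1 (Cripto) is a coreceptor for Nodal at the cell surface, and L1td1 is an RNA-binding protein derived from a retrotransposon. In the embryo Pou5f1, Nanog and Tdgf1 are expressed in the epiblast and persist in the primitive streak, while Sox2 is retained mainly toward the neural side.

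The link between 3 of these genes can be read in promoter sequence. RefSeq start sites of build GRCm38.p6 gave 9 windows for 7 of the 8 genes (Sall4 was not matched), each from 250 bases before to 50 bases after a start. An exact form of the side-by-side element of Sox2 and Pou5f1 was searched on both strands, the Sox core CATTGTN followed directly by the octamer core ATGCAAA. This string occurred in 2 of 32851 such windows in the whole table (0.00609%), and both were the overlapping windows of Nanog. Forms with other letters or spacing, and sites outside the windows, were not searched. The share is that of this string and does not say how rare the element is. The stretch of Nanog around the match (chr6:122707381-122707460, plus strand) is shown because it is where these factors can meet on a member of their own group. The Sox2 stretch (chr3:34649860-34649938, plus strand) holds the octamer core alone. Capitals mark the match, which in Nanog lies on the strand opposite to the gene.
Nanog: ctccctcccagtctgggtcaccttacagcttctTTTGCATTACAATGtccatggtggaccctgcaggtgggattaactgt
Sox2: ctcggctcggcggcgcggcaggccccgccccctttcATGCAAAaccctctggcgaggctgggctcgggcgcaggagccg
The Nanog match runs from 75 to 62 bases before the farther upstream of its start sites, and the Sox2 match from 99 to 93 bases before its start. The octamer core was found in 4.63% of all windows and the Sox core in 12.5%. The composite contains both shorter motifs, so the matches are not separate. Among the 9 windows, 3 held the octamer core (both of Nanog and that of Sox2) and 4 the Sox core (both of Nanog, 1 of Pou5f1 and that of Lin28a). A Stat element, TTCCNGGAA, was in 0 of the 9 and in 1.15% of all windows. A match is a string of letters and does not show binding.

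None of the 8 genes differed by 1.5-fold between the arrays when read from its brightest probe set. Values are log2 ratios, FGF10 array over control array, minus the median ratio of the 22524 probe sets whose mean signal reached 76.35, the median of the array; these are called kept. All 8 genes had a kept probe set. Of the 8, 0 were higher and 0 lower by 1.5-fold, where 5.41% of the 11122 measured genes were higher and 4.86% lower by that much. For 8 genes a count of 0 is near these shares, so it does not set the group apart. Among the brightest 1127 kept probe sets, which include those of Pou5f1, Nanog, Tdgf1 and L1td1, the shares were 0.355% and 1.06%. At 2-fold the count was 0 as well, beside 1.32% of genes higher and 1.29% lower. The median of the 8 ratios was 0.038, against -0.027 over all measured genes, and 5 lay above and 3 below 0. Their range, -0.45 for L1td1 to 0.26 for Sall4, holds 72.3% of all measured genes. The SD among the 8 was 0.22. The technical SD, estimated from pairs of probe sets that read the same gene on these arrays, was 0.20 in the brightest of 4 equal groups of kept probe sets, 0.26 in the next, 0.35 in the third and 0.41 in the dimmest. It covers disagreement between probe sets of a gene within the arrays. It need not cover a shift shared by probe sets of like brightness, and it does not cover variation between cultures.

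**Figure D1:**
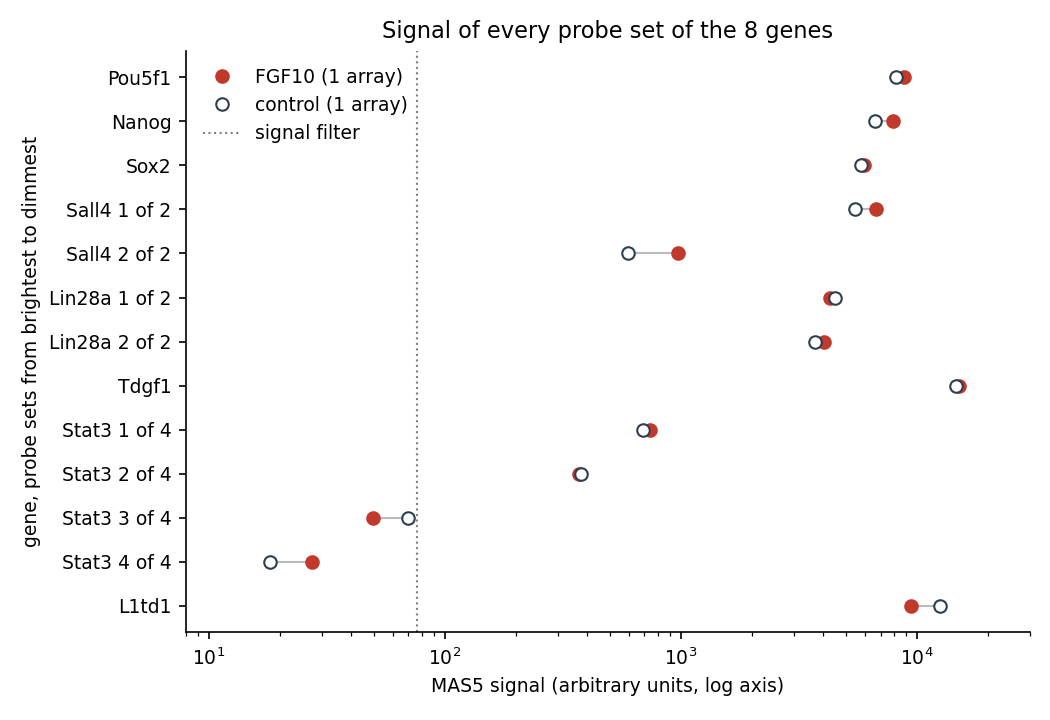
MAS5 signal (log axis) of all 13 probe sets of the 8 genes on the FGF10 array (filled) and the control array (open), with the signal filter of 76.35 as a dotted line. The paired points lie close together except for the dimmer Sall4 probe set, L1td1 and the 2 Stat3 probe sets that are under the filter.

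The 3 core transcription factors each had 1 probe set. Pou5f1 (1417945_at) had a signal of 8787.2 on the FGF10 array, against 8157.8 on the control array, a log2 ratio of 0.073. Sox2 (1416967_at) had 5941.8 on the FGF10 array, against 5812.7 on the control array, a log2 ratio of -0.0026. Both ratios were smaller than the technical SD of 0.20 for probe sets of this brightness. Nanog (1429388_at) had 7878.5 on the FGF10 array, against 6616.1 on the control array, a log2 ratio of 0.22, which is 1.08 times the technical SD. In embryoid bodies, which hold several cell types, a lower share of expressing cells and less RNA per cell cannot be told apart, and this holds for every ratio here.

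Sall4 was the highest of the 8, and its probe sets differed in size of ratio. The brighter one (1424152_at) had 6666.1 on the FGF10 array, against 5443.2 on the control array, a log2 ratio of 0.26 or 1.20-fold. The dimmer one (1424153_s_at) had 972.6 on the FGF10 array, against 597.5 on the control array, a log2 ratio of 0.67 or 1.59-fold. It was the only kept probe set of the 8 genes past 1.5-fold (1 of 11 higher and 0 lower, where 7.03% of all kept probe sets were higher and 4.71% lower; of kept probe sets of like brightness, 5.24% were higher and 1.78% lower). Both were higher with FGF10, and their ratios lay 0.41 apart, against 0.33 for the technical SD of such a difference. The annotation does not say which transcripts the probe sets read.

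L1td1 was the lowest of the 8. Its single probe set (1457314_at) had 9386.7 on the FGF10 array, against 12517.7 on the control array, a log2 ratio of -0.45, or 1.37-fold lower. This is 2.24 times the technical SD, and 8.68% of all measured genes had a ratio at least as low. In these centred ratios it was the only gene of the group to pass a lower threshold, a log2 ratio of 0.32 in either direction. That threshold was passed upward by 14.7% of measured genes and downward by 16.6%. Which genes passed it turned with the scaling. With a loess curve on signal removed, Nanog (0.36) and Sall4 (0.38) passed it and L1td1 (-0.27) did not.

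Lin28a and Tdgf1 were nearly equal on the arrays. For Lin28a, 1437752_at had 4265.9 on the FGF10 array, against 4470.6 on the control array (log2 ratio -0.10), and 1421749_at had 4022.1 on the FGF10 array, against 3694.6 on the control array (0.088). These ratios have opposite signs and lie 0.19 apart, less than the technical SD of such a difference, 0.28. No direction can be given for Lin28a. Tdgf1 (1450989_at), the brightest probe set of the group, had 15020.8 on the FGF10 array, against 14632.4 on the control array, a log2 ratio of 0.0035.

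Stat3 was read by 4 probe sets, of which 2 were kept. The brightest (1426587_a_at) had 741 on the FGF10 array, against 687 on the control array (log2 ratio 0.075), and 1460700_at had 368.5 on the FGF10 array, against 377 on the control array (-0.067). The kept pair disagreed in sign, and both ratios were well under their technical SD. The other pair lay under the filter, where a signal may not be above background. There 1424272_at had 49.7 on the FGF10 array, against 69.9 on the control array, and 1459961_a_at had 27.2 on the FGF10 array, against 18.2 on the control array. One was lower and the other higher with FGF10, so they give Stat3 no direction.

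**Figure D2:**
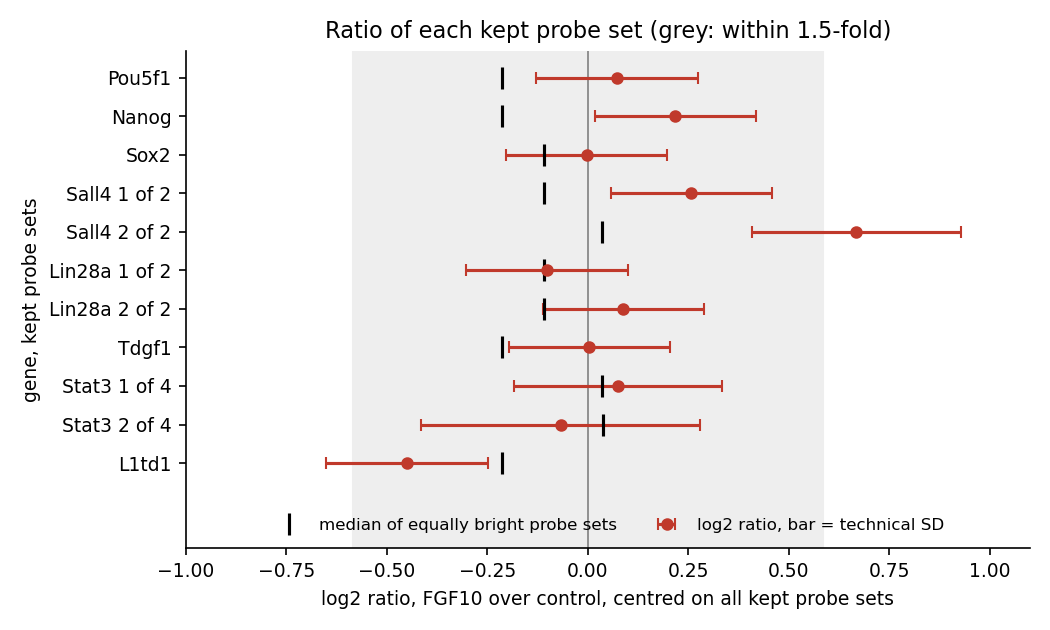
Centred log2 ratio (FGF10 over control) of the 11 kept probe sets, with bars of 1 technical SD, the grey band marking 1.5-fold and black ticks marking the median ratio of kept probe sets of like brightness. The dimmer Sall4 probe set (0.67) is the only point outside the band, and the ticks of the brightest genes lie at -0.21.

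The arrays differed with brightness, and this bears on 7 of the 8 genes. On the FGF10 array, the brightest probe sets of all but Stat3 lay between the 96.0th and the 99.3rd percentile of signal. Kept probe sets were put in 20 groups of equal size by mean signal; in the brightest group, which holds Pou5f1, Nanog, Tdgf1 and L1td1, the median ratio was -0.21, and in the next, which holds Sox2, Lin28a and the brighter Sall4 probe set, it was -0.11. Set against probe sets of like brightness, Nanog was 0.43 above the median of its group, Sall4 0.37, Pou5f1 0.29, Tdgf1 0.22 and Sox2 0.11. Lin28a was 0.0081 above on its brightest probe set, and L1td1 was 0.24 below. Of the 1127 probe sets in the brightest group, 3.64% had a ratio at least as high as that of Nanog, 8.87% as that of Pou5f1 and 14.6% as that of Tdgf1, while 4.17% had one as low as that of L1td1. Few probe sets this bright passed 1.5-fold at all (0.355% higher and 1.06% lower). With a loess curve on signal removed, the ratios were 0.36 for Nanog, 0.38 for Sall4, 0.23 for Pou5f1, 0.22 for Tdgf1, 0.12 for Sox2, -0.0039 for Lin28a and -0.27 for L1td1, and again 0 of the 8 passed 1.5-fold. The sign for Sox2 therefore turns with the scaling. The part of the brightness trend that is technical was not tested.

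**Figure D3:**
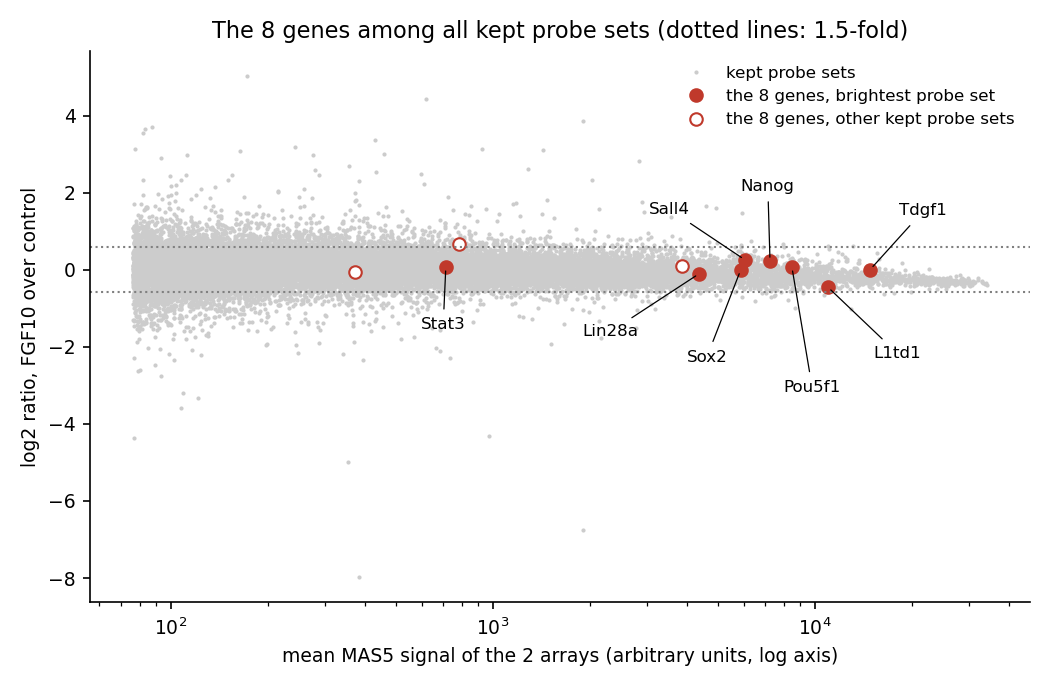
Centred log2 ratio against mean MAS5 signal (log axis) for 22524 kept probe sets (grey), with the brightest probe set of each of the 8 genes filled and other kept probe sets of these genes open. The grey cloud narrows and bends below 0 at high signal, where 7 of the 8 genes lie.

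Genes that act with the 8 were compared in 7 lists, and the list of textbook targets of Pou5f1 with Sox2 had the lowest median, -0.57. Of its 10 genes, 9 were measured, and 4 were lower by 1.5-fold while 0 were higher. Over all measured genes, 4.86% were lower and 5.41% higher, and each list count below is to be read beside these shares. Fgf4, a growth factor gene and the archetype of such a target, had 352.3 on the FGF10 array, against 1015.1 on the control array (-1.56, and -1.56 to -1.41 over 3 probe sets). Dppa5a, an RNA-binding protein gene (-1.03), Utf1, a chromatin-associated factor (-0.73), and Zfp42 (Rex1), a zinc-finger factor (-0.71), were the others. Lefty1, a Nodal inhibitor, was just within 1.5-fold at -0.57. The list also holds Nanog, Pou5f1 and Sox2 themselves. The 6 measured targets outside the group were all below 0, with a median of -0.72, against -0.027 over all measured genes. The lower level of several of these targets was known from earlier results of these data when the list was drawn up.

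Among 19 measured partner factors of the core, of 23 listed, the median was -0.12, with 3 lower and 0 higher. The lower ones were Zfp42 again and the orphan nuclear receptor genes Nr5a2 (-1.01) and Nr0b1 (-0.71), both dim: Nr5a2 had 58.3 on the FGF10 array, against 114.9 on the control array, and was at -0.62 with the FGF10 value raised to the filter. At the upper end were Tcf3 (0.39, and 0.16 to 0.59 over 3 probe sets) and Myc (0.27). By its symbol this Tcf3 is the basic helix-loop-helix factor E2A, and Tcf7l1, a different gene of the list, was at 0.12. In the list of Pou and Sox relatives, 12 of 18 were measured, and 2 were higher and 4 lower around a median of -0.12. Sox11, a factor of neural and mesenchymal progenitors, was at 0.80 (0.27 to 1.01 over 6 probe sets), and the endoderm factor Sox17 was at 0.68. Pou3f1 (Oct6), a factor of the late epiblast and neural precursors, was at -0.67. The endodermal and endothelial factors Sox7 and Sox18 were just past the threshold, at -0.61 and -0.60, and within 1.5-fold without centring. Both were dim. Sox7 had 137.2 on the FGF10 array, against 204.9 on the control array. For Sox18 the signals were 87.4 on the FGF10 array and 129.5 on the control array. Pou2f3 was at -1.53 from dim signals of 42.5 on the FGF10 array and 119.7 on the control array (-0.68 with the signal under the filter raised to it).

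Of the Sall family and the subunits of NuRD, the repressor complex that Sall4 recruits, all 16 were measured, with 1 higher, 0 lower and a median of -0.054. The higher one was Sall3, with 165.3 on the FGF10 array, against 35.6 on the control array (2.18, or 1.08 once the signal under the filter is raised to it). Its relatives Sall1 and Sall2 were at 0.33 and -0.36, and the methyl-CpG binding gene Mbd2 was lowest at -0.37 with another probe set at 0.21. In the list around Lin28a, which holds let-7 processing enzymes and let-7 targets, 18 of 21 were measured, 1 higher and 0 lower. Its median was 0.17, against -0.027 over all measured genes. The higher one was Dicer1, the enzyme that cuts microRNA precursors, whose brighter probe set gave 0.61 and whose dimmer one gave -0.013. Arid3b, a let-7 target, followed at 0.49, and Ccnd1 (cyclin D1) and Drosha, the nuclear microRNA processing enzyme, were lowest at -0.21 and -0.16. In both the Sall and the Lin28a list, a count of 1 higher gene is near the 5.41% of all measured genes.

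Around Tdgf1, 16 of 19 genes of Nodal signalling were measured, 3 higher and 1 lower, with a median of 0.14. Eomes, also counted as a primitive streak marker below, had 5783.5 on the FGF10 array, against 1893.7 on the control array (1.58). The receptor gene Acvr1b was at 0.71 and the effector Smad3 at 0.59, just at the threshold, with another Smad3 probe set at -0.081. Smad3 was within 1.5-fold after quantile normalization, after loess, with an offset and as a mean over probe sets. The TGF-beta family ligand Gdf3 was the lower one, at -1.16. Lefty1, already named among the classic targets, was next lowest at -0.57, and Lefty2 was at -0.35. The output of the pathway was not tested. Around Stat3, 23 of 28 genes of LIF and Jak signalling were measured, 2 higher and 0 lower, beside 5.41% and 4.86% of all measured genes. The median of this list was 0.16, against -0.027 over all measured genes, and it turned to -0.063 on second brightest probe sets. The LIF receptor gene Lifr had 1377.5 on the FGF10 array, against 864.9 on the control array (0.64), but its other kept probe set was at -0.59. Stat5a was at 0.85 from dim signals of 116.3 on the FGF10 array and 63.1 on the control array, and at 0.57 with the dim signal raised to the filter. Pim1, a kinase gene, and Klf4, a zinc-finger factor, were lowest at -0.52 and -0.28. Another Pim1 probe set was at 0.084 and another Klf4 probe set at -0.61.

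**Figure D4:**
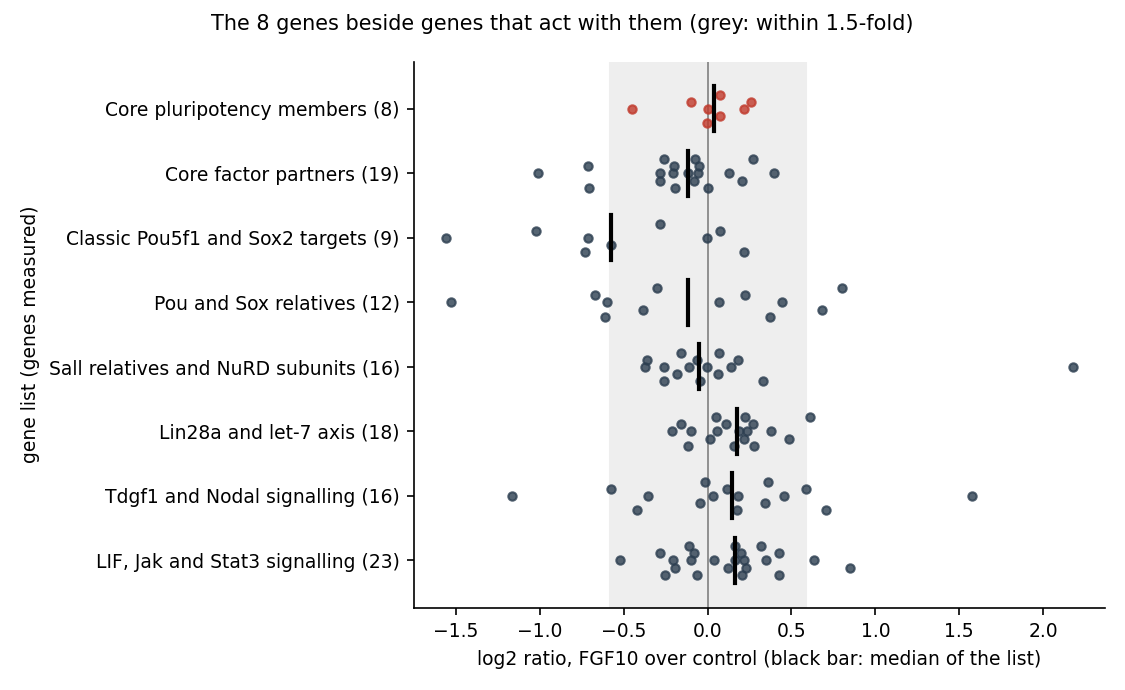
Centred log2 ratio (FGF10 over control) of each measured gene in the group of 8 (red, top) and in 7 lists of genes that act with them (dark), with the median of each list as a black bar and 1.5-fold as a grey band. The 8 genes span -0.45 to 0.26, and the median of the classic targets lies at -0.57.

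Markers of the cell types that embryoid bodies can hold were also compared between the arrays. Over all measured genes, 5.41% were 1.5-fold higher and 4.86% lower. All 5 primitive streak markers were 1.5-fold higher, with a summed signal of 12772.7 on the FGF10 array, against 2956.2 on the control array. Of 7 markers of primitive and visceral endoderm, 1 was higher and 4 lower (5892 on the FGF10 array, against 8108.7 on the control array), and of 5 epiblast markers outside the group, 0 were higher and 2 lower (31792.2 on the FGF10 array, against 39819.3 on the control array). The 2 lower epiblast markers are Utf1 and Zfp42, already counted above. Most of the difference in that sum lies in the DNA methyltransferase gene Dnmt3b, within 1.5-fold at 19016.6 on the FGF10 array, against 26292.9 on the control array. Its log2 ratio was -0.50, with another probe set at -0.041. The remaining epiblast markers, Fgf5 and Otx2, lay above 0, at 0.19 and 0.20. The mean signal of each of the 4 named trophoblast markers was under the filter (159.3 summed on the FGF10 array, against 169.4 on the control array). Of 7 fibroblast markers 5 were under it too (452.1 for all 7 on the FGF10 array, against 600 on the control array), as were 3 of 5 neuroectoderm markers (626.1 on the FGF10 array, against 658.7 on the control array). In each of the fibroblast and neuroectoderm lists 1 marker was 1.5-fold lower and 0 higher, Thy1 (-0.61) among the fibroblast markers and Pax6 (-0.95, or -0.44 with its dim signal raised) among the neuroectoderm markers. The part of these shifts in the ratios of the 8 genes was not tested.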

How the data were processed

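RNA from 2 samples, 1 per group by their titles, was put on 1 Affymetrix array each. The deposited values are MAS5 intensity (signal), not log-transformed. MAS5 is named in the submitters' processing notes, with no version or settings given in the sources used here. Both columns have the same mean, 500.003, once 2% of values is trimmed at either end, so the arrays had been scaled to a common level and a ratio says how a gene differs from the rest of the array. Present or absent calls were not used. With 1 array per group, the number of arrays limits the precision. No value column was left unused.

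From these intensities the log2 ratio of FGF10 over control was computed with no offset and centred by subtracting 0.034, the median over kept probe sets (Python 3.11.15, numpy 2.4.6, pandas 2.3.3, loess from statsmodels 0.14.6). A gene took its brightest kept probe set. No test was made, and 1.5-fold was used as a fixed size. All 13 probe sets of the 8 genes had a gene identifier with the same symbol in the RefSeq table, and 0 probe sets with several genes held one of the 8. Technical SD is the SD of the gap between a gene's brightest and second brightest probe set in 5213 genes, divided by the square root of 2. Named genes are all 8, every list member past 1.5-fold, and the 2 highest and 2 lowest of each list. Alternatives varied the centring, scaling, offset, filter, probe set choice and threshold. The 8 genes, the lists and the tests were chosen with earlier results of these data known.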

Additional observations from a re-analysis of the deposited data

How the results depend on the processing

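The median ratio of the 8 genes, 0.038, ranged from 0.00044 without probe sets of the _x_at, _s_at and _a_at types to 0.17 after loess. Its highest values were those after quantile normalization (0.15) and loess, so it depended on the scaling. When each gene was left out in turn it ranged from 0.0035 to 0.073. The count of the 8 past 1.5-fold, 0, became 1 with second brightest probe sets (Sall4) and 1 (L1td1) at the lower threshold, a log2 ratio of 0.32. It was 0 without centring, after quantile normalization or loess, with an offset, with no filter or a stricter one, with dim signals raised, with the mean over probe sets, without the probe set types above and at 2-fold. Over these settings Nanog ranged from 0.22 to 0.36, Pou5f1 from 0.073 to 0.23 and Sall4 from 0.26 to 0.67, L1td1 from -0.45 to -0.27, and the signs of Sox2, Lin28a and Stat3 turned. Tdgf1 was at 0.22 after loess, and Sall4 at 0.46 as a mean over probe sets. The number of classic targets past 1.5-fold was 4 in every setting tried, and their median ranged from -0.61 to -0.53. Without the 3 genes of the group, an alternative chosen after seeing the data, it was -0.72. The lower level of several of these targets was known from these data when the list was drawn up. The steadiness of this list over settings is therefore no independent support.

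Other lists depended more on the setting. The LIF and Stat3 list had 2 of 23 genes past 1.5-fold, against 4 of 27 with no filter, 1 of 8 at the 75th percentile filter, 1 with dim signals raised, 5 on second brightest probe sets and 1 of 20 without the probe set types above, and its median ranged from -0.063 to 0.22. Partner factors had 3 of 19, against 1 of 11 at the stricter filter and 5 of 19 on second probe sets. Pou and Sox relatives had 6 of 12, against 3 of 6 at the stricter filter, where the median was 0.33, and 9 of 17 with no filter, so their count moved with the number measured. Among the same 12 it was 4 without centring or with an offset, where Sox7 and Sox18 were lost. After quantile normalization or loess it was 5, where Pou3f1 was lost. The Sall and NuRD list had 1 of 16, against 0 of 13 at the stricter filter, which leaves out Sall3, and the Lin28a list 1 of 18, against 0 of 18 as a mean over probe sets and 2 of 17 without those types. The Nodal list had 4 of 16, against 3 in the settings in which Smad3 was lost. Other causes were not tested. With 1 array per group, no difference of any size could be checked against variation between cultures. Those below about 1 technical SD were also within the error of the arrays.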
